A study of Mus musculus with 10 samples.

Results

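The genes described here are 10 genes of the passage from blood monocyte to tissue macrophage: Chi3l3 (now called Chil3), Vcan, Ccr2, Cx3cr1, Arg1, Gpnmb, Apoe, Mrc1, Fcrls and Cd83. They were followed across 10 single-cell libraries of mouse kidney cortex, among 28808 gene symbols in the tables. The levels were read in a gate of barcodes (a barcode stands for a captured cell). A barcode was gated if it held at least 1 unique molecular identifier (UMI, a counted transcript) of C1qa, C1qb, C1qc, Ms4a6c or Ms4a4c and 0 UMIs of Havcr1, Slc12a1 and Pecam1, which mark injured tubule, thick limb and endothelium. After filters on quality the gate held 4535 of 50378 barcodes. The genes were chosen for their course over these same libraries, so their levels are given as a description without a test.

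The material was kidney cortex of mice aged 4 weeks, processed by Drop-seq, which captures the RNA of single cells on barcoded beads. Normal kidneys gave the 1 control library. Days 1, 2 and 4 following the injury had a single library apiece, while days 7, 11 and 14 had a pair, and the submitters tell injured kidneys apart only by the day. The kind of injury, the strain, the sex and the number of animals are not given in the sources used here, and neither is whether the 2 libraries of a day come from different animals. The spread between those 2 libraries may therefore be technical.

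Monocytes leave the blood along gradients of chemokines, small attractant proteins, and those of the classical kind carry the receptor CCR2. In the tissue they can mature into macrophages that make complement C1q, take up dying cells and debris, and handle the lipid and protein they engulf in lysosomes. CX3CR1, the fractalkine receptor, marks patrolling monocytes and the resident macrophages of the kidney, which are there before any injury.

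The promoters of the members are shown first, because Chi3l3 and Vcan were both high on days 1 to 4 while Fcrls and Mrc1 were higher on day 7. Each sequence holds the 150 bases upstream of the start of transcription in RefSeq (GRCm38.p6), 5′ to 3′ on the gene's strand. Capitals mark AGGAAG or its reverse complement. AGGAAG is a longer form of GGAA, the core recognised by ETS factors.
Chi3l3 (chr3:106167565-106167714, strand -): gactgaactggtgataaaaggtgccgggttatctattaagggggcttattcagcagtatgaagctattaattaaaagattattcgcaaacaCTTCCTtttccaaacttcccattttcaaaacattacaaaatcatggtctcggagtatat
Vcan (chr13:89742513-89742662, strand -): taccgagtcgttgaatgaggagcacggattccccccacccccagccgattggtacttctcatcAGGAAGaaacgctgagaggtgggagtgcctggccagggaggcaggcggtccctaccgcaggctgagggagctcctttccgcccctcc
Fcrls (chr3:87263525-87263674, strand -): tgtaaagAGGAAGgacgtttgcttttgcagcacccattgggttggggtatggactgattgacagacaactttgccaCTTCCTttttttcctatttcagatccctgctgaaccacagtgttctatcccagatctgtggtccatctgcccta
Mrc1 (chr2:14229264-14229413, strand +): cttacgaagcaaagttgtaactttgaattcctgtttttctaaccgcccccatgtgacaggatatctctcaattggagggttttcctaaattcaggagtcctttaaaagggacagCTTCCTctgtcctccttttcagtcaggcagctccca
Ccr2 (chr9:124102033-124102182, strand +): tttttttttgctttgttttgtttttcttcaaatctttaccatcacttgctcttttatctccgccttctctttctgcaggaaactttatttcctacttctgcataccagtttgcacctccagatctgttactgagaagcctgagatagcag
Gpnmb (chr6:49036368-49036517, strand +): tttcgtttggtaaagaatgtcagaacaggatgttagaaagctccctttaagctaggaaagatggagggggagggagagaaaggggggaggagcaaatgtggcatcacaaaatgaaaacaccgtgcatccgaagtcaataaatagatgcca

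RefSeq promoters were matched for 8 of the 10 members, and 4 of the 8 held AGGAAG within these 150 bases, searched on both strands. Of 32851 promoters of the same length, 19.7% held it. The early genes Chi3l3 and Vcan held it 1 time each. Mrc1, which was lower on day 1 than on day 7, also held it 1 time, and Fcrls held it 2 times. AGGAAG was not in the windows of Ccr2 and Gpnmb printed above, nor in those of Cx3cr1 and Apoe. The shorter core GGAA does occur in the windows of these genes, so they do not lack it. The AP-1 motif TGANTCA was in none of the 8 and in 4.24% of all promoters. Both motifs were picked after the sequences had been seen, and a match in letters is no evidence that a factor binds there.

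The gate grew and shrank over the days. Gated barcodes made up 0.821% of the control library, with an exact 95% interval of 0.606 to 1.09. Day 1 reached 3.44% (interval 2.86 to 4.11), day 2 reached 11.1% (10.1 to 12.1), and day 4 was similar at 11.6% (10.8 to 12.4). The day 7 libraries had 34.2% and 32.0%, those of day 11 had 3.60% and 3.30%, and 0.739% and 1.27% remained at day 14. In numbers these were 48 control barcodes, then 117, 432 and 708 for the 3 single libraries of days 1, 2 and 4. Day 7 gave 1182 and 1571, day 11 gave 186 and 167, and day 14 gave 49 and 75. They held from 102154 UMIs on day 14 to 3945307 on day 7. The way in changed too. A C1q UMI was held by 87.5% of the gated control barcodes, by 32.5% and 32.2% on days 1 and 2 and by 60.9% on day 4. The share was 91.5% and 85.9% in the day 7 libraries, 80.6% and 88.6% in those of day 11, and 63.3% and 48.0% in those of day 14. The others had entered by Ms4a6c or Ms4a4c alone, 2 genes strongly expressed in monocytes.

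Not every gated barcode looked like a macrophage. All 16 macrophage and monocyte markers found in the tables were detected in the gate of every library, but their summed level ranged from 3988 CPM (UMIs of a gene scaled to one fixed total of gated UMIs for every library) in the control to 32007 in a day 7 library. Proximal tubule markers summed to 1419 CPM in a day 7 library and to 48877 in a day 14 library. A stricter, supported gate was therefore read beside the gate. It asked in addition for UMIs of at least 3 of 8 general leukocyte and macrophage genes (Tyrobp, Fcer1g, Ctss, Laptm5, Cd53, Ptprc, Coro1a and Csf1r) and held 3279 barcodes, in which the proximal markers summed to between 1028 and 15736 CPM and the macrophage markers to between 14246 and 39930. The macrophage and monocyte markers include the gate genes and these 8 genes, so their detection and levels partly follow from the selection. The control stands apart: 1 of its barcodes, with 125173 UMIs, 1 gate UMI and 1 of the 8 genes, held 60.9% of all gated UMIs of that library, and supported barcodes held only 25.3% of them. In day 14 replicate 1 the largest barcode held 24.5%. At the edge of the rule, 6.60% to 36.6% of barcodes with exactly 1 gate UMI were supported, against 85.1% to 97.4% of those with 2 or more and 0.0213% to 11.6% of those with 0. Supported levels are therefore given beside many of the gated ones, and the plot of the members by library shows both.

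**Figure D1:**
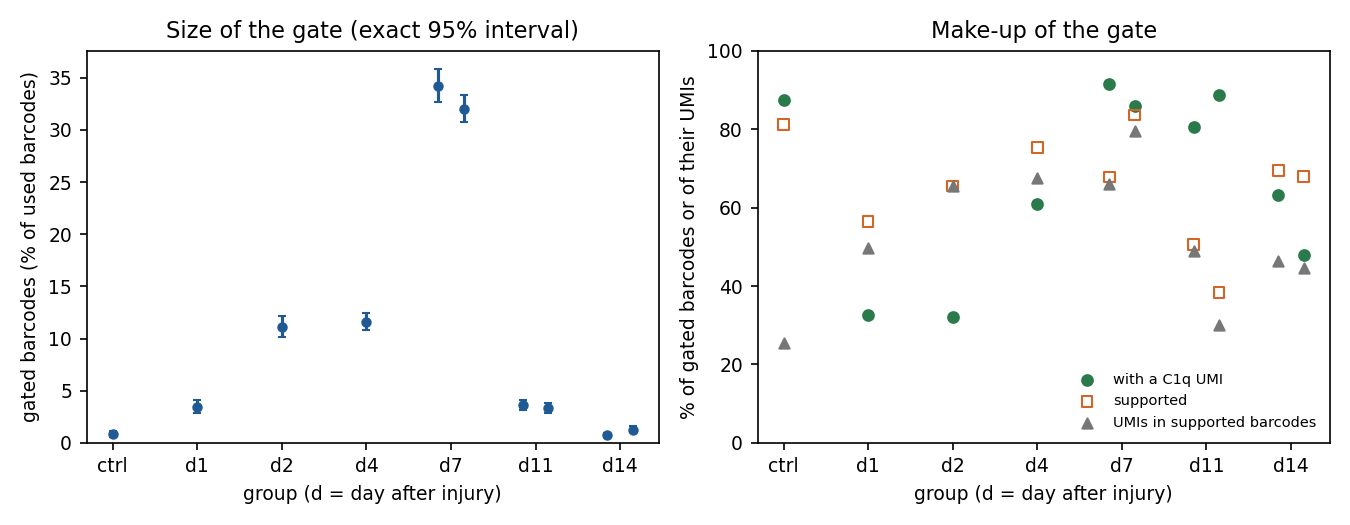
Left, gated barcodes as a percentage of used barcodes in each of the 10 libraries, with exact 95% intervals; right, the percentage of gated barcodes with a C1q UMI (circles) and in the supported gate (squares), and the percentage of gated UMIs in supported barcodes (triangles). The gate peaked on day 7 at 34.2% and 32.0%, and in the control only 25.3% of its UMIs lay in supported barcodes.

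Chi3l3, Vcan and Ccr2 are the monocyte side of the set. Chi3l3 (chromosome 3, 106147554 to 106167564, mm10, minus strand) encodes Ym1, a secreted chitinase-like protein of mouse myeloid cells. The control held 0 CPM. Day 1 had 85.0, day 2 had 148 and day 4 had 84.5 CPM, the day 7 libraries had 2.06 and 2.53, and both libraries of days 11 and 14 were at 0. Its counts were 18, 202 and 121 UMIs on days 1, 2 and 4 but 4 and 10 on day 7, where more barcodes and UMIs were gated than on any of those days. Chi3l3 was thus a gene of days 1 to 4, and the day 7 mean was 64.2-fold below the day 2 level. In the control a count of 0 allows up to 14.6 CPM, so the day 2 level was at least 10.1-fold higher. In supported barcodes the control's limit was 57.6 CPM, and the 224 CPM of day 2 was at least 3.89-fold higher. The share of gated barcodes with a Chi3l3 UMI was 10.3%, 17.1% and 9.32% on days 1, 2 and 4 and 0.338% and 0.573% on day 7. The near relative Chi3l4, with which reads could be confused, had at most 3 UMIs in any gated library. The 8 neutrophil markers examined, genes of another myeloid cell, were also highest on days 1 and 2, summing to 879 and 561 CPM in the gate (1496 and 689.7 in supported barcodes). They summed to 75.5 CPM on day 4 and to 152 and 52.2 in the day 7 libraries, and Mmp9 and Ly6g were at 0 on day 1. Their part in the Chi3l3 level was not tested.

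Vcan (chromosome 13, 89655312 to 89742509, minus strand) encodes versican, a large matrix proteoglycan that classical monocytes also make. Its highest level was the 75.6 CPM of day 1, and day 2 followed with 40.2 and day 4 with 17.5. Day 7 had 1.03 and 2.53 CPM, day 11 had 6.86 and 0, day 14 had 19.6 and 0, and the control held none. The late values rest on 2 UMIs each, both in a single barcode. The control's count of 0 allows up to 14.6 CPM in the gate, close to the day 4 level. In supported barcodes it allows up to 57.6 CPM, above the 22.8 of day 4 and close to the 60.3 of day 2. On day 7 the mean was 42.4-fold below day 1, and 82.2-fold in supported barcodes (1.28 against 105 CPM). The antisense transcripts Gm16318 and Gm4117 overlap Vcan, and whether the counting used strand is not given in the sources used here.

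Ccr2 (chromosome 9, 124101950 to 124113557, plus strand) encodes the receptor for CCL2 and CCL7. It did not follow Chi3l3 and Vcan. The control had 127 CPM, and the single libraries of days 1, 2 and 4 had 1119.6, 718 and 1026. Day 7 had 1105 and 1159.9 CPM, day 11 had 599.9 and 243, and day 14 had 460.1 and 851. All 9 injured libraries lay above the control, and day 7 (1132 ± 38.7 CPM, SD, n = 2 libraries) was level with day 1, which fell between its 2 libraries. In supported barcodes the control had 480.3 CPM and the injured libraries 771 to 1972, with day 14 (994 and 1859) overlapping day 7 (1596 and 1429) and day 1, the 1972, above both. Tubular barcodes, defined by at least 3 tubule markers and no gate UMI, held 0.444 to 46.4 CPM of Ccr2.

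Cx3cr1 (chromosome 9, 119901616 to 120069879, minus strand) had 253 CPM in control barcodes and then 175, 166 and 339.6 CPM on days 1, 2 and 4. The day 7 libraries reached 408 and 519, the day 11 pair had 147 and 92.8, and the day 14 pair had 294 and 227. Within the injured libraries the gated level was thus highest on day 7, 2.65-fold over day 1. In supported barcodes the fold was 1.85, and day 14 (mean 572 CPM) overlapped day 7 (mean 615). The place of Cx3cr1 against the control depends on which barcodes are read: supported control barcodes had 922 CPM, above each injured library, which ranged from 249 on day 2 to 643 on day 7. A Cx3cr1 UMI was found in 58.3% of gated control barcodes, in 17.1% of those of day 1, and in 35.0% and 52.3% for the day 7 pair. Among gated barcodes with a C1q UMI the control was again the highest, at 740.4 CPM against at most 564 in the injured libraries. The annotated gene overlaps several others, among them Csrnp1, Gorasp1 and Xirp1 on the same strand.

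Arg1 and Gpnmb marked a minority of barcodes. Arg1 (chromosome 10, 24915221 to 24927484, minus strand) encodes arginase 1, which breaks down arginine and is a marker of alternatively activated and wound macrophages. The control and both day 14 libraries held 0 CPM. Day 1 had 165 CPM, day 2 only 35.1, and day 4 again 127, before 66.5 and 118 in the day 7 libraries and 3.43 and 0 in those of day 11. It was present from day 1 to day 7 with no steady direction, and only 1 UMI was counted in the 4 later libraries. Arg1 was detected in 5.98%, 1.62% and 4.94% of gated barcodes on days 1, 2 and 4, and the day 7 libraries had 2.88% and 5.54%, so a few rich barcodes carried it. In day 7 replicate 1 a single barcode held 48 of the 129 Arg1 UMIs. The day 14 mean was at least 8.54-fold below day 7, and at least 5.17-fold in supported barcodes. Injured-tubule markers summed to 19341 CPM in the day 1 gate and 8052 in its supported barcodes, and tubular barcodes held at most 8.55 CPM of Arg1. Whether injured tubule RNA contributed to Arg1 on day 1 was not tested.

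Gpnmb (chromosome 6, 49036546 to 49070929, plus strand) encodes a membrane glycoprotein of lysosome-rich, debris-loaded macrophages. Neither the control nor day 1 held a UMI, which allows up to 14.6 and 14.2 CPM. Day 2 had 49.7 CPM, day 4 had 189, and the day 7 libraries had 228 and 147. Day 11 was down to 3.43 and 13.7 CPM, and at day 14 both libraries were at 0. Gpnmb thus appeared after day 1 and was low by day 11, when the gated mean was 22.0-fold below day 7 (188 ± 57.0 CPM, SD, n = 2). In supported barcodes the day 11 mean of 26.2 CPM, from 6 UMIs, was 9.88-fold below the 259 CPM of day 7. Gated barcodes with Gpnmb made up 5.09% at day 2 and 5.51% at day 4, against 13.1% and 8.59% for the day 7 pair.

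Apoe (chromosome 7, 19696109 to 19699188, minus strand) encodes apolipoprotein E, which macrophages secrete as they export cholesterol. Control barcodes had 1792 CPM. From a low of 510.2 CPM at day 1 the level passed 959 at day 2 and 6056 at day 4. The day 7 libraries reached 15345 and 12647 CPM, those of day 11 had 10664 and 5694, and those of day 14 had 2858 and 3562. The day 7 mean was 27.4-fold over day 1 and 7.81-fold over the control, and the libraries of day 7 and day 14 did not overlap. Supported barcodes also went from 991 CPM on day 1 to 22255 and 15787 on day 7. Their control level was 6686 CPM, however, so that the day 7 mean was only 2.85-fold over it, and the day 14 libraries (6091 and 7906) lay on either side of the control. There, however, day 11 (20557 and 18146) overlapped day 7, so the lower gated level on day 11 was not seen in supported barcodes. Proximal markers summed to 26608 and 38626 CPM in the gate on day 11 against 4812 and 6955 in its supported barcodes, and their part in the gated Apoe level was not tested. Tubular barcodes held 36.2 to 706 CPM of Apoe.

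Mrc1 (chromosome 2, 14229392 to 14332057, plus strand) encodes CD206, the mannose receptor by which macrophages clear glycoproteins. The control had 146 CPM, day 1 only 14.2, day 2 95.7 and day 4 151. The level was 236 and 249.9 CPM in the day 7 libraries, 141 and 76.5 in those of day 11, and 108 and 39.7 in those of day 14. Day 1 was the low point, with 3 UMIs in 117 barcodes, and day 7 was 17.1-fold above it. As with Cx3cr1, the supported control barcodes were the highest of all, at 557 CPM against 19.1 on day 1 and 346 and 311 on day 7. Mrc1 was thus low on day 1 and higher by day 7 in both readings, and in supported barcodes it stayed below the control in each injured library.

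Fcrls (chromosome 3, 87250758 to 87263738, minus strand) encodes a scavenger receptor-like protein of the Fc receptor family, best known from microglia. No UMI was counted in the control or at day 1. The level was 5.12 CPM at day 2, 13.3 at day 4 and 40.2 and 44.9 in the day 7 libraries, and those of day 11 had 82.3 and 27.3. Of the day 14 libraries the first had 0 and the other 17.0. In supported barcodes the day 11 libraries were the highest, at 168 and 90.7 CPM against 55.5 and 55.8 on day 7. In the gate the day 11 libraries overlapped day 7, and without day 11 replicate 1 the log2 difference turned from 0.16 to -0.49. The day 11 counts are small, 24 and 10 UMIs. The counts of 0 in the control and on day 1 allow up to 14.6 and 14.2 CPM in the gate, above the levels of days 2 and 4. In supported barcodes the control's count of 0 allows up to 57.6 CPM, above the day 7 levels there.

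Cd83 (chromosome 13, 43784775 to 43803132, plus strand) encodes a surface protein of activated dendritic cells, B cells and macrophages that stabilises MHC class II. The control had 131 CPM, and days 1, 2 and 4 had 4.72, 16.1 and 30.0. The day 7 libraries had 50 and 109 CPM, the day 11 pair 154 and 240.3, and the day 14 pair 411 and 329. Each later day lay above the earlier ones, and day 14 was 4.64-fold over day 7 (7.31-fold in supported barcodes). In supported barcodes the order was the same up to day 7, at 9.53 to 136 CPM, with 294 and 779.9 on day 11 and 783 and 726 on day 14, against 461 in the control. A single UMI was counted on day 1. The 10 early stress genes examined, such as Fos and Jun, which dissociation of tissue can induce, summed to 16714 CPM in supported control barcodes, 4445 to 5636 on days 1 to 4, 6597 and 8764 in the day 7 libraries, 11480 and 10565 in the day 11 pair, and 9497 and 9192 in the day 14 pair. The 6 B cell markers examined summed to 79.9 and 78.3 CPM in the day 7 gates and to 225 and 301 at day 14, with 110 and 94.7 against 148 and 395 in supported barcodes. The part of neither set in the Cd83 level was tested.

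**Figure D2:**
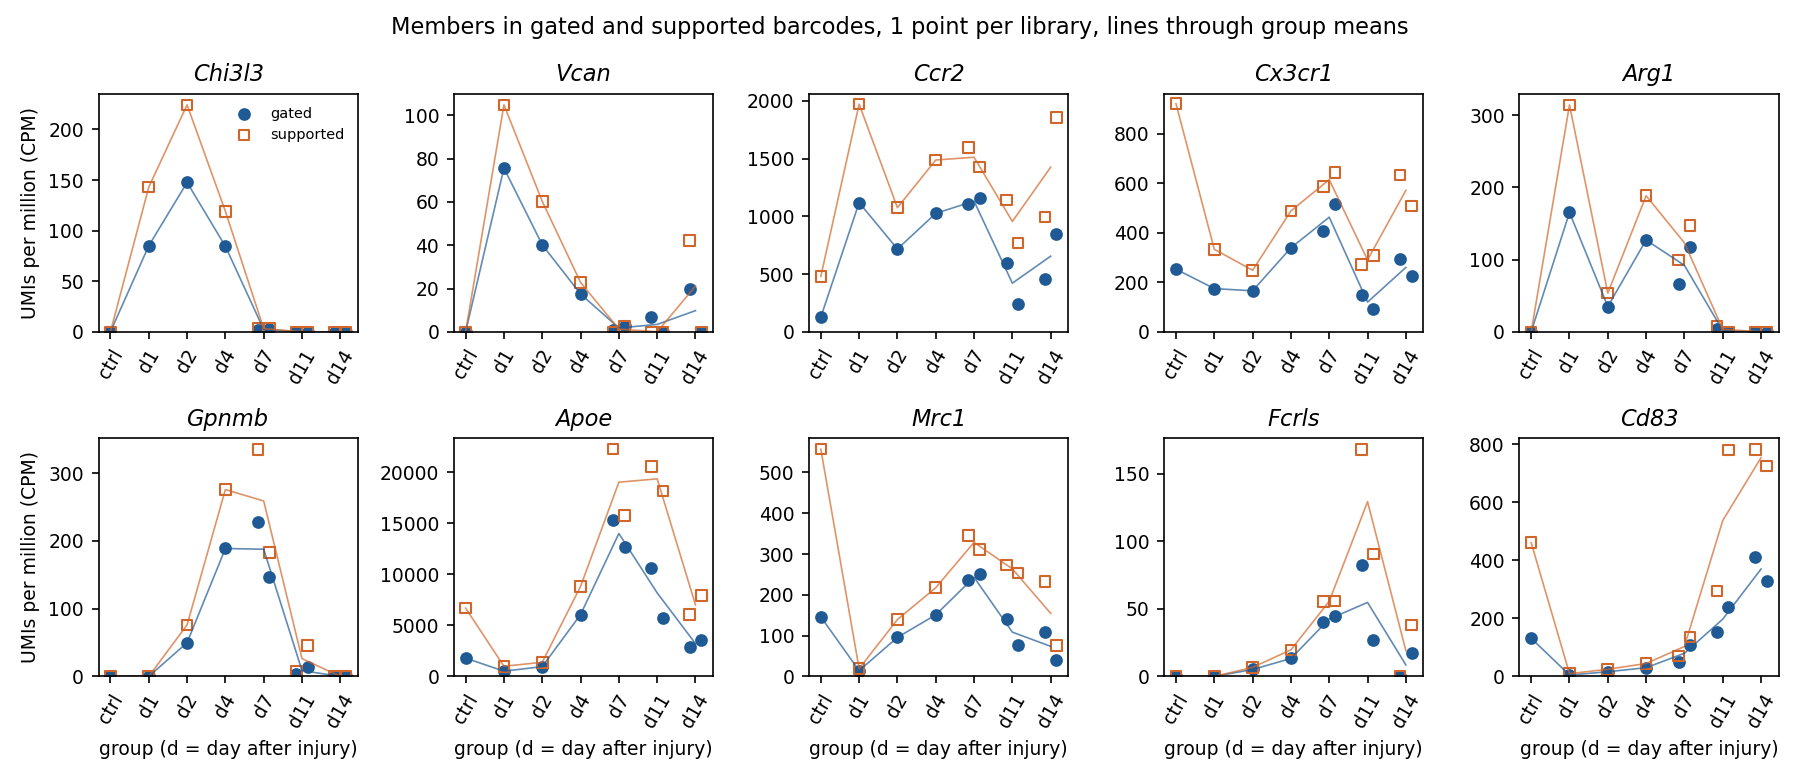
Scaled UMI level (CPM) of each of the 10 members by day after injury, 1 point per library, in gated (filled circles) and supported (open squares) barcodes, with lines through the mean of each group. Chi3l3 and Vcan were high on days 1 to 4, Gpnmb on days 4 and 7, Apoe on day 7 in gated barcodes and on days 7 and 11 in supported ones, and Cd83 was lowest on day 1 and highest on day 14.

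The members also differed between the routes into the gate. In the 5 libraries from day 1 to day 7, barcodes with a C1q UMI were set beside those with only Ms4a6c or Ms4a4c. Chi3l3, Vcan and Ccr2 were higher in the Ms4a-only barcodes in 5 of 5 libraries. Cd83, Mrc1, Cx3cr1 and Apoe were higher in the C1q barcodes in 5 of 5, and Fcrls and Gpnmb in 4 of 5, with 0 UMIs in both routes on day 1. Arg1 was higher in the C1q barcodes in 3 libraries and in the Ms4a-only ones in 2. Few counts carry some of these directions: the whole day 1 gate held 1 UMI of Cd83 and 3 of Mrc1. For Ccr2 the C1q level in day 7 replicate 2 was 0.988 of the Ms4a-only level. The tallies were the same in supported barcodes, except that Vcan was higher in the Ms4a-only ones in 4 of 5. On day 4 Chi3l3 was at 223 CPM in Ms4a-only barcodes and 14.7 in C1q barcodes. On day 7 Apoe was at 16278 and 13918 CPM in C1q barcodes against 3172 and 2155 in the others.

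Within the C1q route the Ccr2 level was higher at each later day up to day 7, and in the Ms4a-only route it had no steady direction. C1q barcodes had 323, 619 and 716 CPM on days 1, 2 and 4 and 1067 and 1158 in the day 7 libraries. Ms4a-only barcodes had 1551, 769 and 1641, and then 1608 and 1172 CPM. The level on day 1 came mainly from Ms4a-only barcodes and that on day 7 mainly from C1q barcodes, which were then 91.5% and 85.9% of the gate. Arg1 on day 1 was found only in Ms4a-only barcodes, at 255 CPM against 0. These are descriptions of single libraries, since the split uses genes of the same barcodes.

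**Figure D3:**
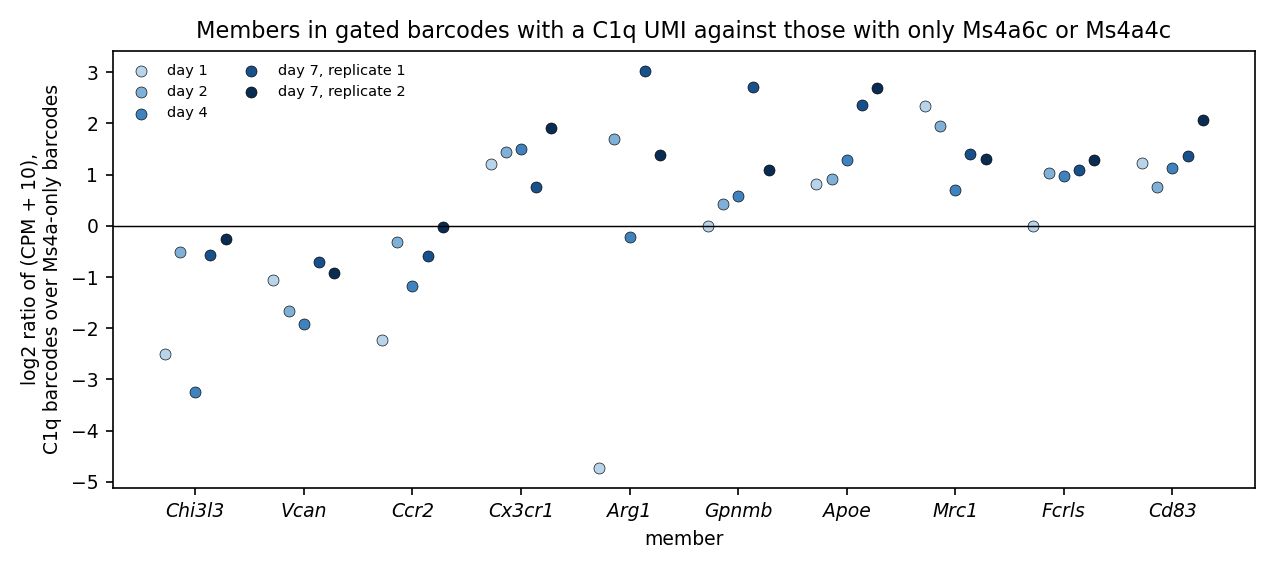
Log2 ratio of (CPM + 10) in gated barcodes with a C1q UMI over that in gated barcodes with only Ms4a6c or Ms4a4c, for each member (x axis) and each of the 5 libraries from day 1 to day 7 (points). Chi3l3, Vcan and Ccr2 lie below 0 in 5 of 5 libraries, and Cx3cr1, Apoe, Mrc1 and Cd83 above 0 in 5 of 5. The day 1 points of Cd83 and Mrc1 rest on 1 and 3 UMIs.

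Within single supported barcodes, Gpnmb kept company with Arg1 and apart from Ccr2. Of the barcodes with Arg1, 51.4% also held Gpnmb on day 4 (18 of 35, exact 95% interval 34.0 to 68.6), against 3.41% of those without Arg1 (upper bound 5.41). The shares were 43.8% against 16.6% in day 7 replicate 1 and 49.4% against 7.32% in replicate 2. Arg1 barcodes were deeper, with a median of 2527 UMIs against 1340.5 on day 4. After each barcode was thinned to 500 UMIs the second gene was still found more often in them, in 25.7%, 15.6% and 16.5% against 2.21%, 8.97% and 2.44%. Ccr2 was held by 36.4%, 40.0%, 31.0% and 36.4% of Gpnmb barcodes on day 2, day 4 and in the day 7 libraries, although they too were deeper. Among barcodes without Gpnmb the shares were 75.9%, 73.5%, 66.3% and 69.5%, and the intervals did not overlap in any of the 4 libraries. Cx3cr1 was likewise less frequent in Gpnmb barcodes in 4 of 4, from 0% against 34.5% on day 2 to 50% against 61.9% in day 7 replicate 2.

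Chi3l3 barcodes also held Cx3cr1 less often. On day 2 Cx3cr1 was in 5.48% of the 73 barcodes with Chi3l3 and in 41.0% of the 210 without, and on day 4 in 11.3% and 43.9%. Vcan was in 27.4% of Chi3l3 barcodes on day 2 against 5.71% of the others, and on day 4 in 9.68% against 2.55%, where the intervals overlapped. Ccr2 was in 86.3% against 68.1% on day 2. Mrc1 was in 65.6% of Fcrls barcodes and 34.2% of the others in day 7 replicate 2, and in 27.5% and 16.8% after thinning to 500 UMIs, while in replicate 1 the shares were 36.0% and 28.9% with overlapping intervals. Over the 3 libraries with values for this pair, Mrc1 was more frequent in Fcrls barcodes in 3. After thinning it was more frequent in 2 and less frequent in 1. In all, 90 ordered pairs were looked at, and the intervals cover counting error within a library only.

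**Figure D4:**
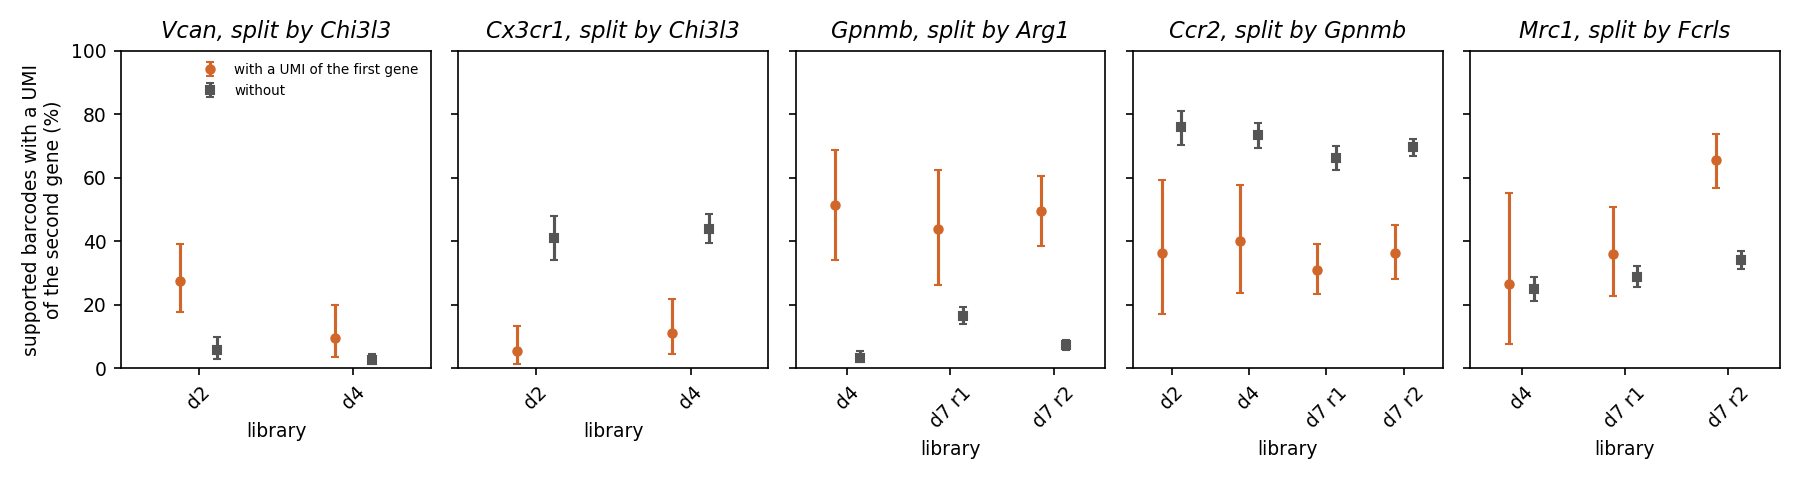
Percentage of supported barcodes with a UMI of the second gene among barcodes with (circles) and without (squares) a UMI of the first gene, in 5 pairs of members (each panel is titled with the second gene, split by the first) and by library (r1 and r2 are replicates 1 and 2 of day 7), with exact 95% intervals. Ccr2 was found in 31.0% to 40.0% of Gpnmb barcodes and in 66.3% to 75.9% of the others.

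Genes whose course over the 10 libraries was most like a member's were sought among 3346 genes with a mean of at least 50 CPM, by Pearson's r of log2(CPM + 10) in gated barcodes. The libraries share depth and tubular RNA, so the coefficients are descriptions. Chi3l3 was nearest to Eif3j1 (r = 0.87) and Ccl2 (0.86), and Vcan to Ccnd2 (0.94) and Eif3j1 (0.89). Arg1 was nearest to Lcn2 (0.98) and Sprr2f (0.95), both on the list of injured-tubule markers. Ccr2 was nearest to Snrpb2 and S100a6 (0.92 each), Fcrls to Clec4b1 (0.92) and Ccl8 (0.88), and Gpnmb to Psap (0.95) and Fabp5 (0.93). Apoe was nearest to C1qc (0.97) and C1qa (0.94), which are gate genes. Mrc1 was nearest to Blvrb and Itm2c (0.91 each) and Cx3cr1 to Pla2g7 and 4930506M07Rik (0.94 each). Cd83 was nearest to Ecsit (0.94) and Adh1 (0.92), but for Ecsit the coefficient was -0.55 in supported barcodes.

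Other genes of the same pathways were tested on counts summed per library, using the quasi-likelihood test of edgeR. The lists of these genes were chosen with earlier results of these data known, so the counts per list are descriptions. Genes were called at an adjusted p of 0.05 (Benjamini and Hochberg), over every gene tested. Of 7837 genes tested in the gate, 2.59% were called higher and 5.41% lower on day 7 than in the control. In supported barcodes the shares of 3795 genes were 1.37% and 2.19%. The comparison rests on the single control library described above, and without day 7 replicate 1 or 2 the called genes numbered 375 or 331 in place of 627. Of 24 classical monocyte genes tested, 11 rose and 0 fell (5 of 21 rose in supported barcodes), and the list's median log2 change was 1.84 with genes absent from the control at their lower bound, against -0.07 over all genes. S100a6, a calcium-binding protein, was at 4.87 CPM in the control and 492 and 499 on day 7. Fn1, fibronectin, was at 0 and at 89.7 and 191, at least 9.62-fold higher (at least 3.10-fold in supported barcodes). Of 28 lysosome and lipid handling genes 17 rose (10 of 26 supported). Fabp5, a fatty acid carrier, was at 4.87 CPM (1 UMI) in the control and 245 and 198 on day 7. In supported barcodes its control count was 0, and day 7 was at least 5.23-fold higher. Spp1, osteopontin, which injured tubule also makes, was at 302 CPM in the control and at 4720 and 4850 on day 7. The 9 injured-tubule markers, of which Spp1 is 1 and Lcn2 another, summed to 1013 CPM in the control gate against 11483 and 8453 in the day 7 gates, and in supported barcodes to 115 against 6020.2 and 6169. Proximal tubule markers were lower on day 7, at 1419 and 1871 CPM against 11851.5 in the control gate. Supported barcodes had 1054 and 1028 against 6167. Thick limb, distal and collecting duct markers were at 2724 and 2859 CPM against 11886 in the gate. In supported barcodes the latter were higher on day 7, at 980 and 1779 against 538. The part of these marker sets in the monocyte and lysosome list changes was not tested.

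Among inflammatory genes on day 7 the changes went both ways, with 3 of 17 higher and 2 lower (2 higher and 7 lower of 18 supported). The chemokine genes Ccl7 and Ccl2, whose products are ligands of CCR2, rose, Ccl7 from 0 to 207 and 357 CPM and Ccl2 from 43.8 to 474 and 575. Il1b, the cytokine interleukin 1 beta, fell by 2.85 on the log2 scale (SE 0.37, adjusted p = 0.000314, edgeR), from 1870 CPM in the control to 220.1 and 346. The early stress genes were lower too, at 10298 CPM in the control gate against 6128 and 8158 on day 7, and in supported barcodes as given above. Their part in these changes was not tested. Of 21 mature and resident macrophage genes 6 rose in the gate and 0 in supported barcodes, where 1 fell. Trem2, a lipid-sensing receptor, was at 19.5 CPM in the control gate and 177 and 269 on day 7, and missed the threshold in supported barcodes (adjusted p = 0.163, edgeR). Trafficking receptors rose for 5 of 11 genes, Ccr1 and Itgb2 among them, and in supported barcodes 0 of 10 rose and 1 fell. Of 14 alternative activation genes 4 rose and 2 fell (0 and 1 of 11 supported), and of 14 dendritic cell and antigen presentation genes 0 were called (1 of 12 fell in supported barcodes).

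From day 7 to day 11, 11.4% of 7837 genes were called higher in the gate and 4.62% lower, with 5.88% higher and 2.42% lower in supported barcodes. The 1253 calls became 483 without day 11 replicate 2 and 679 or 759 without day 7 replicate 1 or 2. Of the lysosome and lipid list 11 of 28 genes fell and 0 rose (4 of 26 fell in supported barcodes). Its median in the gate was -0.88 against -0.05 over all genes, and in supported barcodes -0.35 against -0.02. Injured-tubule markers were lower as well, at 959.8 and 2834 CPM in the day 11 gates and 672 and 4824 in supported barcodes. Spp1, which is on both lists, made up 665 and 2193 CPM of these gated sums. It made up 616 and 4761 CPM of the supported sums, so they are not separate from the lysosome and lipid list. The part of injured-tubule RNA was not tested. Abca1, the cholesterol exporter, had 193 and 129 CPM in the day 7 libraries against 17.1 and 8.19 in those of day 11, and fell by 3.29 on the log2 scale (SE 0.59, adjusted p = 0.000913, edgeR). Atp6v0d2, a subunit of the proton pump, fell by 3.10, from 225 and 155 to 6.86 and 24.6 CPM. Its control level was 375 CPM in the gate and 19.2 in supported barcodes. The gated sums of thick limb, distal and collecting duct markers were 1131 and 3099 CPM on day 11, against 2724 and 2859 on day 7. Their sums in supported barcodes were 231 and 209 against 980 and 1779, and their part in the Atp6v0d2 level was not tested. Trafficking receptors fell for 5 of 11 genes and rose for 1 (1 and 1 of 10 supported). Nr4a1, a nuclear receptor needed by patrolling monocytes and also an immediate early gene, rose from 24.7 and 56.8 to 123 and 115.

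Inflammatory genes split on day 11, with 6 of 17 higher and 3 lower, and 10 of 18 higher and 1 lower in supported barcodes. Il1b was at 929 and 696 CPM and Cxcl1, a chemokine that draws in neutrophils, at 130 and 95.6 against 38.1 and 25.6 on day 7. The early stress genes summed to 8494 and 6251 CPM in the day 11 gates against 6128 and 8158 at day 7, and in supported barcodes their levels, given above with Cd83, were higher on days 11 and 14 than on day 7, as were those of Il1b. Their part in the inflammatory genes was not tested. Cxcl9, an interferon-induced chemokine, was lower, at 6.86 and 13.7 against 49.0 and 213. Neutrophil markers summed to 48.0 and 60.1 CPM in the day 11 gates, and their day 7 sums are given above with Chi3l3. The part of neutrophil RNA in these levels was not tested. Of the dendritic cell and antigen presentation genes 1 of 14 rose, the lectin Cd209a, and 7 of 12 in supported barcodes. Ccl17, a chemokine made by dendritic cells and alternatively activated macrophages, rose by 2.60 on the log2 scale (SE 0.48, adjusted p = 0.00121, edgeR). Of 24 classical monocyte genes 7 fell and 1 rose (1 and 2 of 21 supported), of 14 alternative activation genes 3 fell and 2 rose (1 and 2 of 11), and of 21 mature macrophage genes 1 fell and 1 rose (0 and 1 of 20). Napsa and Odc1, which rose in these lists, are also expressed by the proximal tubule, whose markers summed to 26608 and 38626 CPM on day 11. In supported barcodes Napsa was still called higher (log2 change 1.57, adjusted p = 0.00515, edgeR) and Odc1 was not (1.64, adjusted p = 0.144). Napsa is itself 1 of the 16 proximal markers. Their sum in supported barcodes was 4812 and 6955 CPM on day 11, against 1054 and 1028 on day 7. The part of tubule RNA in the gated and supported values was not tested.

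Day 14 was set against the same day 7 libraries, so the comparisons share them. In the gate 7.99% of genes were called higher on day 14 and 2.74% lower, and in supported barcodes 4.27% and 1.69%. Of 28 lysosome and lipid genes 11 fell (9 of 26 supported). Ctsd, the protease cathepsin D, had 2151 and 2040 CPM in the day 7 libraries against 274 and 346 in those of day 14, and Spp1 was at 294 and 397. Injured-tubule markers, Spp1 among them, were also lower at day 14, at 852 and 539 CPM in the gate and 169 and 433 in supported barcodes. Spp1 made up 42.3 and 395 CPM of the supported sums. Trem2 was at 39.2 and 22.7 CPM and was 1 of 3 mature macrophage genes of 21 that fell (1 of 20 supported). Proximal tubule markers summed to 48877 and 40928 CPM in the day 14 gates against 1419 and 1871 at day 7, and to 15736 and 5844 against 1054 and 1028 in supported barcodes. The part of either marker set in the day 14 calls was not tested. Among classical monocyte genes 5 of 24 rose and 5 fell (6 and 3 of 21 supported), and Napsa, a gene also of the proximal tubule, was among those that rose. Ly6c2, which defines classical monocytes, rose by 2.92 on the log2 scale (SE 0.49, adjusted p = 0.000516, edgeR), to 186 and 885 CPM from 84.0 and 91.5. Fn1 fell to 0, at least 13-fold lower (at least 7.50-fold in supported barcodes). The members Vcan and Chi3l3 had 2 and 0 UMIs on that day. Without day 14 replicate 2 the called genes numbered 403 in place of 841.

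Il1b on day 14 was at 1625 and 1543 CPM, and Ccl4 and Ccl3 rose with it. In all 3 of 17 inflammatory genes rose and 1, Ccl7, fell (6 and 1 of 18 supported). Mmp12, the macrophage elastase, was the alternative activation gene with the clearest fall, from 419 and 584 to 29.4 and 62.4 CPM, and 4 of 14 fell and 1 rose (2 and 0 of 11). Of 11 trafficking receptors 2 rose and 1 fell (2 and 0 of 10), and of 14 dendritic cell genes 1 rose (2 of 12).

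A trend with log2 of the day was fitted over the 5 libraries of days 1 to 7. In the gate 0.0184% of 10872 genes were called, 2 genes that both rose, with 889 at an unadjusted p under 0.05 and 62 called by DESeq2. In supported barcodes 0.145% of 8938 genes were called rising and 0.0671% falling. Of the pathway genes Ms4a7, a relative of the gate genes carried by mature macrophages, was the 1 called in the gate. Its 37.8, 112 and 331 CPM on days 1, 2 and 4 were followed by 817 and 694 in the day 7 libraries, a slope of 1.49 per doubling of the day (SE 0.12, adjusted p = 0.0166, edgeR). The share of C1q barcodes in the gate differed over these days, as given above, and in a fit of gated C1q barcodes alone no gene, Ms4a7 included, was called (0 of 9860, with 957 at an unadjusted p under 0.05). In supported C1q barcodes Ms4a7 was called (adjusted p = 0.0119, edgeR). In the gate no gene of the other lists was called, and without the day 4 library or either day 7 library 0 genes in all were called, against 188 without day 1 and 9 without day 2. In supported barcodes 2 mature macrophage genes and 1 lysosome gene rose, 1 alternative activation gene rose and 1 fell, and 1 inflammatory gene fell.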

How the data were processed

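The deposited values are whole-number UMI counts per gene symbol and barcode, 1 table per library, which the authors made from Drop-seq reads. Per the submitters' processing notes the build was mm10 and the aligner Bowtie2 2.2.7. The annotation, counting tool and filters are not given in the sources used here. A gene with no row in a library's table was taken as 0 there (Chi3l3 in 3 libraries, and Fcrls, Arg1 and Gpnmb in some libraries). Groups were taken from titles and time labels.

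A barcode was used if it had 500 or more UMIs from 500 or more genes, of which no more than 50% were mitochondrial. Scrublet (scanpy 1.11.5) marked at most 0.111% of a library by its automatic threshold, so the top 5% of scores per library were removed instead. Counts of gated barcodes were summed per library and divided by their total (CPM). Shares carry exact Clopper-Pearson 95% intervals, and a count of 0 was bounded at 3 counts. Both cover counting error only. For a fold against a day with 2 libraries, the 3 counts were set against the UMIs of both libraries together. PCR was corrected as far as the UMIs allow. Any 2 libraries shared at most 1 gated barcode sequence. The 2 libraries of a day differed beyond counting noise (chi-square per degree of freedom 2.16 to 8.99 in the gate).

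Summed counts of other genes were tested with edgeR 4.0.16 (R 4.3.3): TMM scaling, its filter on low counts, 1 term per group over 10 libraries, and quasi-likelihood p-values adjusted after Benjamini and Hochberg. This takes the spread of the single control from the days with 2 libraries. SE is the log2 change divided by the square root of F. The alternatives were the supported gate, C1q barcodes only, doublets kept, other filters and scalings, DESeq2 1.42.0, left-out libraries and a replicate block. Named genes are all members, up to 4 called genes per list and comparison ranked by size of change (average log2 CPM 4 or more), and the 2 nearest genes of each member; not all of them are printed. The members and lists were chosen with earlier results of these data known.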

Additional observations from a re-analysis of the deposited data

How the results depend on the processing

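The members' differences between days were recomputed under each alternative: 424 of 440 values kept their sign. Mrc1 and Cx3cr1 turned from higher to lower on day 7 than in the control in the supported gate (log2 difference -0.75 and -0.58), with C1q barcodes only (-0.71 and -0.59) and with the mean of per-barcode CPM (-0.53 and -0.47, chosen after seeing the data). Arg1 turned from lower to higher on day 7 than on day 1 with C1q barcodes only (3.40). The other 9 changes of sign were in Ccr2 for day 7 against day 1 in the supported gate (-0.38, from 0.02), with mitochondrial UMIs up to 25% (-0.01) and without day 7 replicate 2 (-0.02); in Vcan and Apoe for day 11 against day 7 in the supported gate (-0.16 and 0.04, from 0.14 and -0.84); in Vcan and Fcrls without day 11 replicate 1 (-0.23 and -0.49, from 0.14 and 0.16); and in Vcan for day 14 against day 7 with C1q barcodes only (-0.13) and without day 14 replicate 1 (-0.23, from 0.55). The cause was not tested.

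Called genes between day 7 and the control numbered 627, and 135 in the supported gate, 206 with C1q barcodes only, 120 with both restrictions and 1215 in a fit of those groups alone. Lower calls outnumbered higher ones on day 7 against the control, but not in that fit or with no filter on low counts. Between days 11 and 7 the called genes numbered 1253, and 315 in the supported gate and 238 with its C1q barcodes only. Between days 14 and 7 they numbered 841, and 226 and 161. The trend of days 1 to 7 called 2 genes, 19 in the supported gate, 67 in its C1q barcodes, 0 in gated C1q barcodes, 1 with doublets kept, 1 without cell filters, 470 with no filter on low counts and 62 by DESeq2. Fewer genes and UMIs entered the stricter gates. The fits of the supported gate's C1q barcodes and the trend without days 1, 2 or 4 were chosen after seeing the data. Leaving out a library in turn gave 331 to 768, 483 to 1292, 403 to 952 and 0 to 188 calls. Replicate numbers did not pair the libraries (correlations of same-numbered deviations -0.03, 0.06 and -0.01), and a replicate block gave 1053 calls for day 11 and 688 for day 14 against day 7. Depth limits the control, day 1 and day 14, where 3 counts equal 14.2 to 29.4 CPM in the gate of a single library.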
